A study of Homo sapiens with 12 samples.

Results

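Semaphorins, neuropilins and plexins are the ligands, co-receptors and receptors of a guidance system that steers axons, vessels and migrating cells. The genes described here were 6 semaphorins (SEMA3A, SEMA3B, SEMA3C, SEMA3D, SEMA5A and SEMA6A), both neuropilins (NRP1 and NRP2) and the plexins PLXNA1 and PLXNC1, which are 10 of the 19379 genes measured. They were found by the gene symbol in the annotation of the array, which 13 probesets carried, and the brightest probeset over all 12 arrays stood for each gene. The 10 genes were chosen on earlier results of these same arrays, in which their differences between SCG2 OE and EV cells were known. The whole family of 31 genes (20 semaphorins, 9 plexins and 2 neuropilins), which includes the 10, is therefore also given, with the 21 other genes counted alone. The counts of the 10 are a description of the chosen genes and are not evidence about the family.

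RNA came from C32 and WM266-4, both human melanoma cell lines. Each line was made to overexpress SCG2 (SCG2 OE), the gene of the secretory granule protein secretogranin II, by lentiviral transduction with the vector pLEX980-hSCG2 and drug selection, or received the empty vector (EV) in the same way. The 4 groups of 3 arrays were C32 EV, C32 SCG2 OE, WM266-4 EV and WM266-4 SCG2 OE. By the labels the 3 arrays are biological replicates, but whether each stood for its own transduction is not stated in the sources used here. A p-value thus sets a difference only against the spread between these arrays, which may not hold the spread between transductions. As a check of the labels, SCG2 averaged 4.95 ± 0.61 (SD, n = 3) in C32 EV and 12.59 ± 0.11 in C32 SCG2 OE, and 7.92 ± 0.55 in WM266-4 EV and 12.97 ± 0.02 in WM266-4 SCG2 OE, all on the log2 scale of the deposited RMA values. Of 8 melanocytic markers, MITF, SOX10 and S100B lay between 9.72 and 12.11 on all 12 arrays and TYR and DCT at 8.50 or more, while MLANA was between 5.73 and 7.17 in WM266-4, PMEL between 5.78 and 5.89 in C32 EV and TYRP1 between 4.53 and 5.38 in WM266-4 EV. Medians of the arrays ran from 7.17 to 7.32, and the third WM266-4 SCG2 OE array had a narrower spread of values (SD 2.13) than the others (2.26 or more). An increase of 1 on the log2 scale is a doubling, and a probeset's level was compared only with its own level on other arrays.

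Class 3 semaphorins are secreted, and they bind neuropilins, which pass the signal on through plexins of the A type. SEMA5A and SEMA6A are membrane-bound, SEMA6A binds plexins of the A type directly, and PLXNC1 is the receptor of SEMA7A, a semaphorin held in the membrane by a lipid anchor. Plexins act inside the cell on small GTPases and so on the cytoskeleton and on adhesion. Melanocytes descend from the neural crest, whose migration is guided by semaphorins, and neuropilins also bind members of the vascular endothelial growth factor (VEGF) family.

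Promoter windows of 4 genes that were higher in C32 SCG2 OE are shown as a description. Whether these windows have a part in the values below was not tested. Each run is 300 bases long, from 250 bases before to 50 bases after a transcription start, from RefSeq on GRCh38.p14, and the capitals mark GC boxes (GGGCGG or, on the other strand, CCGCCC). The SEMA3B run is chr3:50259976-50260275 on the plus strand, the SEMA5A run is chr5:9546026-9546325 on the minus strand, the SEMA3D run is chr7:85187007-85187306 on the minus strand and the PLXNC1 run is chr12:94148327-94148626 on the plus strand. For SEMA3B and PLXNC1, which have 5 and 2 such windows, the window at the annotated start of the gene is printed, and the single window of SEMA3D does not lie at its annotated start.
SEMA3B promoter: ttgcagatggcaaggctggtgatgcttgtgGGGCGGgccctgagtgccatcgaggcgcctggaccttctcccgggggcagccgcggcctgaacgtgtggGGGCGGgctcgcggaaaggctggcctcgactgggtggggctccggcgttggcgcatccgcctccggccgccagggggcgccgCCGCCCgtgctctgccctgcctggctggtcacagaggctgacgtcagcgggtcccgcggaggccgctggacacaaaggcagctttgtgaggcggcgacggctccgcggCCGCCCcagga
SEMA5A promoter: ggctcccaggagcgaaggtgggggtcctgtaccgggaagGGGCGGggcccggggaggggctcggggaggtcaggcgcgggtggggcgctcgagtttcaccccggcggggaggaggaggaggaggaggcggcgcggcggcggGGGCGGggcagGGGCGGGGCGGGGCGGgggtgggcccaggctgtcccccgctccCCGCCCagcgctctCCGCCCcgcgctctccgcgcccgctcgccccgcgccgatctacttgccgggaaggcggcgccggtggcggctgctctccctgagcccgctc
SEMA3D promoter: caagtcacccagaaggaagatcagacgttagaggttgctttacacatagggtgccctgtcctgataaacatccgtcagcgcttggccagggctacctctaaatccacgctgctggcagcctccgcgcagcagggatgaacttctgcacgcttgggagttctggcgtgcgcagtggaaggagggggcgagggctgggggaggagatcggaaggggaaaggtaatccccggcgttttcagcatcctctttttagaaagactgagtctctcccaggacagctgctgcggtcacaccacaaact
PLXNC1 promoter: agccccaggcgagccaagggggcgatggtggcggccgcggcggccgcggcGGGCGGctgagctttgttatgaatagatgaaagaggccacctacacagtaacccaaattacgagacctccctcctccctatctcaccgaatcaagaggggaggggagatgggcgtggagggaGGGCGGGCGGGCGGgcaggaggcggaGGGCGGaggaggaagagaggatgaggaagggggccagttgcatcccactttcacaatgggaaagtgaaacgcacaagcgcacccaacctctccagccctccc

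Of the 10 genes, 7 matched a promoter window in the table used. SEMA3A, SEMA6A and NRP1 are named only. Counted at every start position on both strands, so that neighbouring matches may share bases, the SEMA3B run held 4 GC boxes, the SEMA5A run held 7, the PLXNC1 run held 5 and the SEMA3D run held 0. A GC box was present in 45% of all 35116 windows of this length. The SEMA5A run was 81.0% G and C with 39 CpG dinucleotides, and the SEMA3D run was 57.0% G and C with 14, beside medians of 58.7% and 14 over all windows. Neither the E-box CACGTG (7.26% of all windows) nor the variant CATGTG, or its complement CACATG (11.1%), was in any of the 4 runs, which says only that these letters are not in these windows. NRP2 and PLXNA1, which were not called in C32, had windows with 3 and 5 GC boxes. GC boxes were thus found both in genes that were called and in genes that were not, and they are given as a description.

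**Figure D1:**
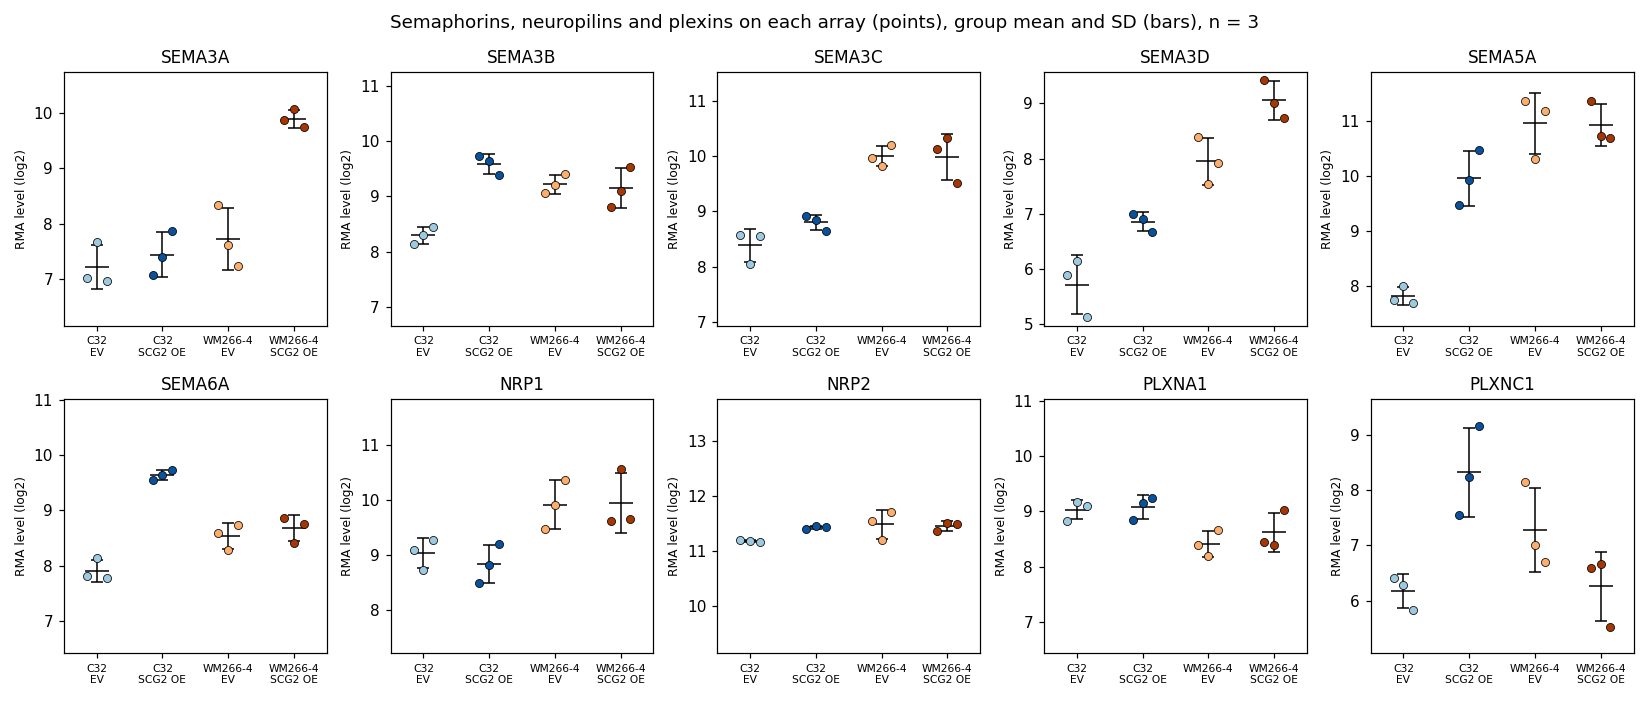
Level of each of the 10 genes (vertical axes, RMA level on the log2 scale, each spanning the same range) on every array of the 4 groups (horizontal axes). Points are arrays and bars are the group mean and SD with n = 3. SEMA3A is highest in WM266-4 SCG2 OE (9.74 to 10.08), and SEMA6A is highest in C32 SCG2 OE (9.55 to 9.72).

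The question in C32 was how SCG2 OE cells differ from EV cells of the same line. SEMA5A, PLXNC1, SEMA6A, SEMA3B and SEMA3D were higher in C32 SCG2 OE, by 2.20 to 4.45 fold, and SEMA3A, SEMA3C, NRP1, NRP2 and PLXNA1 did not pass the test. A gene was called when the adjusted p of limma, with Benjamini-Hochberg adjustment over all 19379 genes, was below 0.05. Called higher were 5 of the 10 genes and called lower 0 of 10, beside 11.5% of all genes called higher, 11% called lower and 22.4% called in either direction. Since the genes were chosen with such values known, nothing is read from their count. Their median log2 fold change was 0.78, beside 0.01 over all genes. With each array centred on its median, the share of higher calls among all called genes went from 51.1% to 34.4%, and the same 5 member genes were called.

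SEMA5A, whose product carries thrombospondin repeats beside its semaphorin domain, was at 7.76, 8.0 and 7.70 on the C32 EV arrays and at 9.47, 9.92 and 10.48 on the C32 SCG2 OE arrays. The groups did not overlap, and the lowest SCG2 OE array lay well above the highest EV array. The log2 fold change was 2.14 (SE 0.23), with an adjusted p of 0.000558 from limma. SEMA6A, a transmembrane ligand of A-type plexins, was at 7.81, 8.13 and 7.77 in EV and at 9.55, 9.64 and 9.72 in SCG2 OE. Its 3 SCG2 OE arrays were close together and far from the EV arrays. The log2 fold change of SEMA6A was 1.73 (SE 0.12, adjusted p = 7.81e-05), the smallest p among the 10 genes in C32.

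PLXNC1 was at 6.4, 6.29 and 5.83 in C32 EV and at 7.56, 8.25 and 9.17 in C32 SCG2 OE. All SCG2 OE arrays were higher than all EV arrays, but they spread over more than 1 unit, with an SD of 0.81 against 0.31 in EV. The log2 fold change was 2.15 (SE 0.35, adjusted p = 0.00404). SEMA3B, a secreted ligand known in lung tissue as a candidate tumour suppressor, was at 8.14, 8.30 and 8.44 in EV and at 9.74, 9.63 and 9.39 in SCG2 OE. The groups were apart, and SEMA3B rose by 1.29 on the log2 scale (SE 0.12, adjusted p = 0.000343).

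SEMA3D, a secreted ligand known for guiding endothelial cells, was at 5.89, 6.14 and 5.12 in C32 EV and at 7.0, 6.90 and 6.67 in C32 SCG2 OE. The groups did not overlap, and the log2 fold change was 1.14 (SE 0.24, adjusted p = 0.0107). The deposited values hold no detection calls, and the 95th percentile of 398 olfactory receptor genes, taken as silent, lay between 5.59 and 5.74 on the EV arrays, and 1 of the 3 EV values of SEMA3D was below it. With the methods' t-test, SEMA3D (adjusted p = 0.103) and PLXNC1 (adjusted p = 0.0704) were not called in C32. Leaving out each C32 array in turn kept all 5 calls.

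The remaining 5 genes had log2 fold changes between -0.19 and 0.41 in C32. NRP2, a co-receptor of class 3 semaphorins and of VEGFC, was at 11.20, 11.19 and 11.17 in EV and at 11.40, 11.46 and 11.44 in SCG2 OE. These groups did not overlap, as was the case for 19.8% of all genes in the upward direction. The shift was small, 0.25 (SE 0.08, adjusted p = 0.0577), and NRP2 was called under 6 of the alternatives run, with adjusted p from 0.00658 to 0.0489, and had an adjusted p of up to 0.323 under the others. SEMA3C, a ligand of both neuropilins, was at 8.57, 8.04 and 8.55 in EV and at 8.92, 8.84 and 8.64 in SCG2 OE. Its groups were also apart, 0.41 apart on average (SE 0.15, adjusted p = 0.0912), and with an intensity trend in the prior it was called (adjusted p = 0.0431).

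NRP1, the co-receptor of SEMA3A and of VEGFA, was at 9.09, 8.74 and 9.27 in C32 EV and at 8.49, 8.82 and 9.20 in C32 SCG2 OE. The groups overlapped, and the difference of -0.19 had a 95% confidence interval from -0.64 to 0.25. PLXNA1, a signalling receptor for class 3 semaphorins, was at 8.83, 9.16 and 9.09 in EV and at 8.84, 9.15 and 9.25 in SCG2 OE. Its difference was 0.05, with an interval from -0.26 to 0.36, and its sign changed when arrays were centred (-0.04). SEMA3A on its brightest probeset was at 7.02, 7.67 and 6.96 in EV and at 7.06, 7.39 and 7.86 in SCG2 OE, which overlapped (0.22, interval from -0.32 to 0.77).

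**Figure D2:**
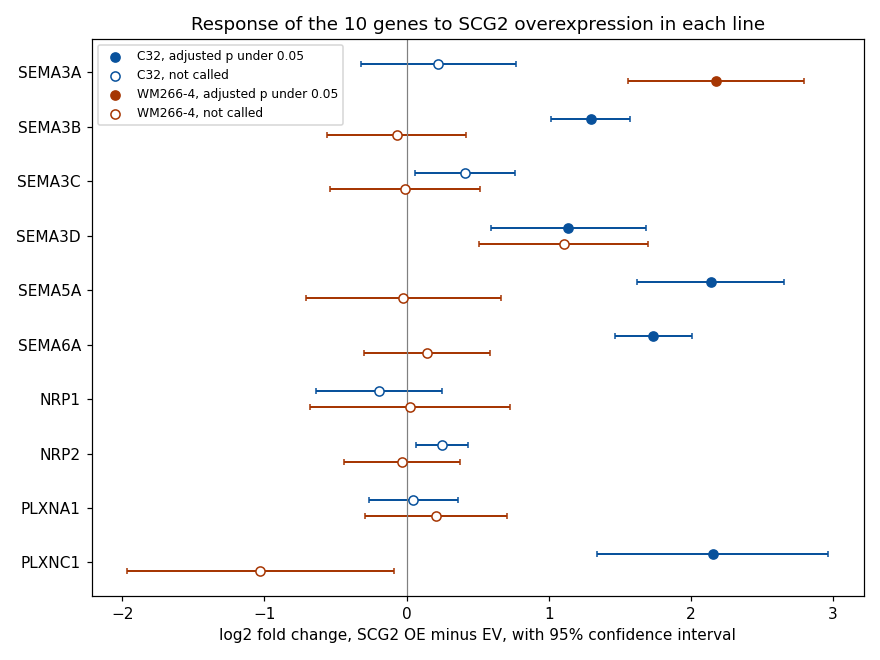
Log2 fold change of SCG2 OE against EV (horizontal axis) for the 10 genes (vertical axis) in C32 (blue) and WM266-4 (brown), with 95% confidence intervals. Filled points passed an adjusted p of 0.05. SEMA3A alone is filled in WM266-4 (2.18), and PLXNC1 lies at 2.15 in C32 and at -1.03 in WM266-4.

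Lineage markers moved with the same contrast in C32. Of 8 melanocytic markers 2 were higher and 2 lower, where 11.5% of all genes were called higher and 11% lower. PMEL, a melanosome fibril protein, had a log2 fold change of 5.75 and TYRP1, a melanin enzyme, one of 1.44, while TYR and DCT fell by 1.42 and 1.34. The log2 of the summed level of the 8 markers lay between 14.40 and 14.48 in EV and between 13.97 and 14.54 in SCG2 OE. Of 4 epithelial markers, CDH1, the gene of E-cadherin, was higher by 3.15 and EPCAM fell by 0.36, with a log2 sum from 7.69 to 7.94 in EV and from 7.98 to 8.93 in SCG2 OE. COL1A2 was the 1 of 6 fibroblast markers that was called (0.56), with a log2 sum from 11.22 to 11.25 in EV and from 11.74 to 11.79 in SCG2 OE. None of the 5 leukocyte or 3 endothelial markers was called. CDH1 in EV and EPCAM on all arrays were below the olfactory receptor percentiles, so their differences are not exact sizes. In WM266-4 no marker was called by limma, where only 0.155% of all genes were called in either direction. TYRP1 was at 3.55 there (adjusted p = 0.144, groups apart, EV below those percentiles) and PMEL at -1.79 (adjusted p = 0.563, groups overlapping). The melanocytic log2 sum in WM266-4 ran from 14.49 to 14.99 in EV and from 13.95 to 14.70 in SCG2 OE. By the interaction test of limma, the difference between the lines was called for PMEL (-7.54, adjusted p = 7.13e-05) and CDH1 (-3.33, adjusted p = 0.0154). It was called for no other marker, where 2.78% of all genes were called. The part of these markers in the results was not tested, and in bulk RNA a change in the share of cells of a kind and a change of RNA per cell cannot be told apart.

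In WM266-4, the same question had a different answer for several of the 10 genes. SEMA3A was higher in WM266-4 SCG2 OE by 4.53 fold. SEMA3D had a log2 fold change of 1.11 that did not pass the test in the fit without pairs of arrays. With the replicate number as a block in limma, SEMA3D passed (adjusted p = 0.0327). PLXNC1 had a log2 fold change of -1.03 that passed neither way. The other 7 genes lay between -0.07 and 0.21. Called without the block were 1 of 10 genes, upward, beside 0.0619% of all genes called higher, 0.0929% called lower and 0.155% called in either direction. An unadjusted p below 0.05 was found for 4.63% of all genes. The spread between WM266-4 arrays was wider, with a median SD of the 10 genes of 0.34 in EV and 0.36 in SCG2 OE, against 0.24 and 0.20 in C32.

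SEMA3A, the founding secreted semaphorin, which collapses axonal growth cones, was at 8.33, 7.60 and 7.23 in WM266-4 EV and at 9.88, 10.07 and 9.74 in WM266-4 SCG2 OE. The SCG2 OE arrays were close together and above every EV array. The log2 fold change was 2.18 (SE 0.27, adjusted p = 0.0259). The call was kept without EV replicate 1 (adjusted p = 0.0158) and was lost without EV replicate 2 (0.17), EV replicate 3 (0.0682), SCG2 OE replicate 1 (0.0915), SCG2 OE replicate 2 (0.102) or SCG2 OE replicate 3 (0.0544), while the log2 fold change stayed between 1.93 and 2.48. It was also lost by the methods' t-test (adjusted p = 0.728). With the replicate number as a block, the adjusted p of SEMA3A was 0.00244.

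Replicate numbers paired the arrays of this line, as described with the processing, and within pairs SEMA3A was higher by 1.55, 2.47 and 2.52 in SCG2 OE. SEMA3D was at 8.40, 7.53 and 7.92 in EV and at 9.42, 9.02 and 8.73 in SCG2 OE. The groups did not overlap, as for 5.4% of all genes upward, and within pairs SEMA3D was higher by 1.02, 1.48 and 0.81. Its log2 fold change was 1.11 (SE 0.26), with an adjusted p of 0.318 without the block, of 0.0327 with the replicate block and of 0.0221 with array weights. The block took the count of called genes among the 10 from 1 to 2.

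PLXNC1 was at 8.15, 7.01 and 6.71 in WM266-4 EV and at 6.59, 6.66 and 5.53 in WM266-4 SCG2 OE. Every SCG2 OE array was below every EV array, as for 4.94% of all genes, and the pairs differed by -1.56, -0.35 and -1.18. The difference of -1.03 (SE 0.41) had an adjusted p of 0.914 without and of 0.112 with the replicate block. The lowest PLXNC1 array was the third SCG2 OE array, the one with the narrower spread of values, and there it lay below the olfactory receptor percentile of 6.0.

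SEMA5A, SEMA6A and SEMA3B, which rose in C32, were not called in WM266-4. SEMA5A was at 11.35, 10.31 and 11.18 in EV and at 11.36, 10.72 and 10.69 in SCG2 OE, with an interval of the difference from -0.71 to 0.66. SEMA6A was at 8.59, 8.28 and 8.73 in EV and at 8.87, 8.42 and 8.75 in SCG2 OE, with an interval from -0.30 to 0.59. SEMA3B was at 9.05, 9.21 and 9.40 in EV and at 8.82, 9.10 and 9.53 in SCG2 OE, with an interval from -0.56 to 0.42. In all 3 genes the groups overlapped, and the sign of SEMA5A and of SEMA3B turned with quantile normalization (0.08 and 0.01).

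The co-receptors and their partners overlapped as well. NRP1 was at 9.47, 9.91 and 10.36 in WM266-4 EV and at 9.61, 10.56 and 9.65 in SCG2 OE, and NRP2 was at 11.55, 11.20 and 11.70 in EV and at 11.36, 11.51 and 11.49 in SCG2 OE. SEMA3C was at 9.97, 9.83 and 10.20 in EV and at 10.12, 10.32 and 9.51 in SCG2 OE. PLXNA1 was at 8.39, 8.19 and 8.65 in EV and at 8.45, 8.38 and 9.02 in SCG2 OE. Of these 4 genes PLXNA1 had the largest difference, 0.21, with an interval from -0.29 to 0.71.

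SEMA3A was read by 3 probesets, and they did not give 1 answer. The second probeset, which targets an Ensembl transcript and is dimmer, was at 5.40, 4.21 and 5.07 in C32 EV and at 5.99, 6.03 and 6.38 in C32 SCG2 OE. In WM266-4 it was at 4.55, 4.37 and 3.98 in EV and at 7.87, 8.31 and 8.86 in SCG2 OE. The groups were apart in both lines. In a fit of all 21448 probesets its log2 fold change was 1.24 in C32 (SE 0.27, adjusted p = 0.0143) and 4.05 in WM266-4 (SE 0.27, adjusted p = 0.000895). Its EV values were below the olfactory receptor percentiles in both lines (5.59 to 5.74 in C32 and 5.39 to 5.55 in WM266-4), so neither change is an exact size.

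Looked at after the values of the brightest probeset were known, the second probeset was called in WM266-4 without any single array (adjusted p from 0.00107 to 0.0131). In C32 the call of the second SEMA3A probeset was lost without SCG2 OE replicate 3 (adjusted p = 0.0537), and the brightest probeset had an adjusted p of 0.571 in the same fit. Averaged over its probesets, SEMA3A was called in C32 with 0.73 (adjusted p = 0.0114). The third probeset stayed near 3 on the log2 scale on average (3.08 over 12 arrays) and was not called in either line. Whether the probesets read different transcripts of SEMA3A was not tested.

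**Figure D3:**
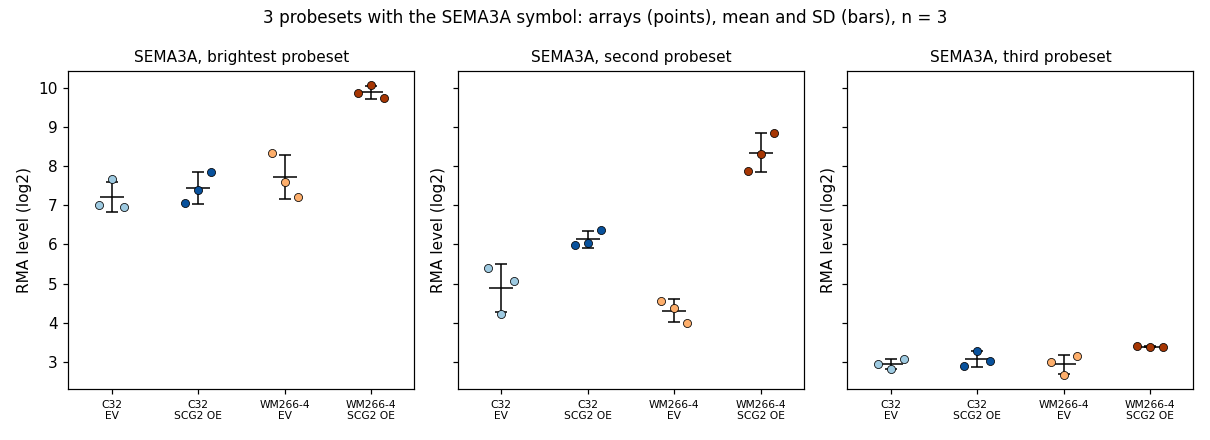
RMA level on the log2 scale (vertical axis) of the 3 probesets with the SEMA3A symbol on each array of the 4 groups (horizontal axis), with the group mean and SD (n = 3). The second probeset goes from 3.98 to 4.55 in WM266-4 EV to between 7.87 and 8.86 in WM266-4 SCG2 OE, while the third stays near 3 in all groups.

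The response differed between the lines for 5 of the 10 genes, tested as an interaction in a fit of all 12 arrays, beside 2.78% of all genes (0.882% with the higher response in WM266-4 and 1.9% with the lower). SEMA3A responded more in WM266-4, by 1.96 on the log2 scale (SE 0.39, adjusted p = 0.017). PLXNC1 responded less in WM266-4, with a difference of -3.18 (SE 0.61, adjusted p = 0.0122), its 3 C32 SCG2 OE arrays having moved above the EV arrays and its 3 WM266-4 SCG2 OE arrays below them. The differences were -2.16 for SEMA5A (SE 0.41, adjusted p = 0.0122), -1.59 for SEMA6A (SE 0.23, adjusted p = 0.0022) and -1.36 for SEMA3B (SE 0.25, adjusted p = 0.0103). Among all called genes, 31.7% were higher in WM266-4, and 42% with centred arrays.

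For SEMA3D the difference between the lines was -0.03, with an interval from -0.86 to 0.80, so its rises of 1.14 and 1.11 could differ by nearly that much in either direction. The remaining 4 genes (SEMA3C, NRP1, NRP2 and PLXNA1) had differences between -0.43 and 0.22, and none was called. Without C32 SCG2 OE replicate 2, SEMA3A was not called in this comparison (1.93, adjusted p = 0.0517), and the other 4 calls held without any single array.

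EV cells of the lines differed in the levels of 7 of the 10 genes, 6 higher and 1 lower in WM266-4, beside 14.5% of all genes called higher, 13.5% called lower and 28% called in either direction. SEMA5A was higher in WM266-4 EV by 3.13 (SE 0.29, adjusted p = 4.19e-06), SEMA3D by 2.23 (SE 0.27, adjusted p = 4.4e-05) and SEMA3C by 1.61 (SE 0.21, adjusted p = 7.06e-05). Smaller differences in the same direction were those of SEMA3B (0.93, adjusted p = 0.0016), NRP1 (0.88, adjusted p = 0.0326) and SEMA6A (0.63, adjusted p = 0.0103), while PLXNA1 was lower in WM266-4 EV (-0.62, adjusted p = 0.0272). PLXNC1 (1.11, adjusted p = 0.0728), SEMA3A (0.50, adjusted p = 0.216) and NRP2 (0.30, adjusted p = 0.121) were not called. With centred arrays the share of higher calls among all called genes went from 51.7% to 40%, and the median of all genes from -0.01 to -0.11.

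Some of these calls rested on single arrays. NRP1 was not called without C32 EV replicate 1 (adjusted p = 0.0711), C32 EV replicate 2 (0.129), WM266-4 EV replicate 2 (0.0719) or WM266-4 EV replicate 3 (0.135). PLXNA1 was not called without C32 EV replicate 2 (0.1), C32 EV replicate 3 (0.0852), WM266-4 EV replicate 1 (0.0681) or WM266-4 EV replicate 2 (0.103), and SEMA6A was not called without C32 EV replicate 3 (0.051). PLXNC1 was called without WM266-4 EV replicate 3 (0.0445), C32 SCG2 OE replicate 3 (0.0474) or WM266-4 SCG2 OE replicate 3 (0.0464), and NRP2 without WM266-4 EV replicate 2 (0.02).

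Put in order, the group means of SEMA5A ran from C32 EV (7.82 ± 0.16, SD, n = 3) through C32 SCG2 OE (9.96 ± 0.50) to WM266-4 SCG2 OE (10.93 ± 0.38) and WM266-4 EV (10.95 ± 0.56), and the last pair overlapped. SEMA3D ran from C32 EV (5.72 ± 0.53) through C32 SCG2 OE (6.86 ± 0.17) and WM266-4 EV (7.95 ± 0.43) to WM266-4 SCG2 OE (9.06 ± 0.35), with no overlap between neighbours. SEMA6A ran from C32 EV (7.90 ± 0.20) through WM266-4 EV (8.53 ± 0.23) and WM266-4 SCG2 OE (8.68 ± 0.23), which overlapped, to C32 SCG2 OE (9.64 ± 0.09). PLXNC1 ran from C32 EV (6.17 ± 0.31) and WM266-4 SCG2 OE (6.26 ± 0.63), which overlapped, through WM266-4 EV (7.29 ± 0.76) to C32 SCG2 OE (8.33 ± 0.81), the last pair again overlapping.

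The wider family shows how far the 10 genes stand for it. Of all 31 semaphorin, plexin and neuropilin genes, 11 were called higher in C32 SCG2 OE (35.5%, beside 11.5% of all genes) and 1 lower (beside 11%), and the median log2 fold change was 0.27. These 31 include the 10 genes chosen on such values, and 5 of the 11 higher calls are theirs. The shares of all 31 are thus partly set by that choice. SEMA3A, 1 of the chosen genes, was the 1 of 31 called in WM266-4 (3.23%). Among the 21 genes outside the 10, 6 were higher and 1 lower in C32 (median 0.25), beside 11.5% and 11% of all genes. In WM266-4 0 of 21 were called with limma, also with the replicate block, beside 0.155% of all genes (151 genes with the block). An unadjusted p below 0.05 was found in WM266-4 for 1 of the 21, SEMA7A, beside 4.63% of all genes. Between EV cells, 14 of 31 were higher in WM266-4 (45.2%, beside 14.5% of all genes) and 2 lower (beside 13.5%). Of these, 6 higher and 1 lower were among the 10 chosen genes, and 8 higher and 1 lower among the 21.

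SEMA6D, a transmembrane ligand known in heart development, went from 5.88, 6.37 and 5.96 in C32 EV to 7.34, 7.48 and 7.50 in C32 SCG2 OE (1.38, adjusted p = 0.000421). SEMA3E, which binds PLXND1 without a neuropilin, went from 8.88, 8.68 and 8.68 to 9.93, 9.73 and 9.74 (1.06, adjusted p = 0.000389). Its receptor PLXND1 was higher in the same arrays, at 6.38, 6.90 and 6.73 in EV and at 7.22, 7.42 and 7.32 in SCG2 OE (0.65, adjusted p = 0.0119). Both genes of this ligand and receptor pair were thus called in C32, and neither was in WM266-4 (SEMA3E 0.56 and PLXND1 0.09). The difference between the lines was called for neither of them. By the interaction test of limma it was -0.49 for SEMA3E (adjusted p = 0.629) and -0.56 for PLXND1 (adjusted p = 0.352).

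PLXNA2 was higher in C32 SCG2 OE by 1.21 (adjusted p = 0.000402) while its WM266-4 value was -0.63 (adjusted p = 0.914), and the difference between the lines was called (-1.85, adjusted p = 0.0118). PLXNB2 was higher in C32 by 1.06 (adjusted p = 0.000642), while PLXNB3 fell by 0.46 (adjusted p = 0.0143) and was not called without C32 EV replicate 3 (0.0536).

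SEMA7A, the ligand of PLXNC1, was at 6.58, 6.44 and 6.28 in C32 EV and at 6.85, 6.74 and 7.13 in C32 SCG2 OE. In WM266-4 it was at 7.82, 7.74 and 7.85 in EV and at 6.98, 7.17 and 7.24 in SCG2 OE. Neither pair of groups overlapped, upward in C32 (0.47, adjusted p = 0.031) and downward in WM266-4 (-0.67, adjusted p = 0.298, and 0.141 with the replicate block). The difference between the lines was -1.14 (SE 0.19, adjusted p = 0.00575), in the same direction as that of its receptor PLXNC1. The C32 call of SEMA7A was lost without EV replicate 2 (0.0725), EV replicate 3 (0.102), SCG2 OE replicate 1 (0.0515) or SCG2 OE replicate 3 (0.0812), and with the replicate block (0.0633).

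**Figure D4:**
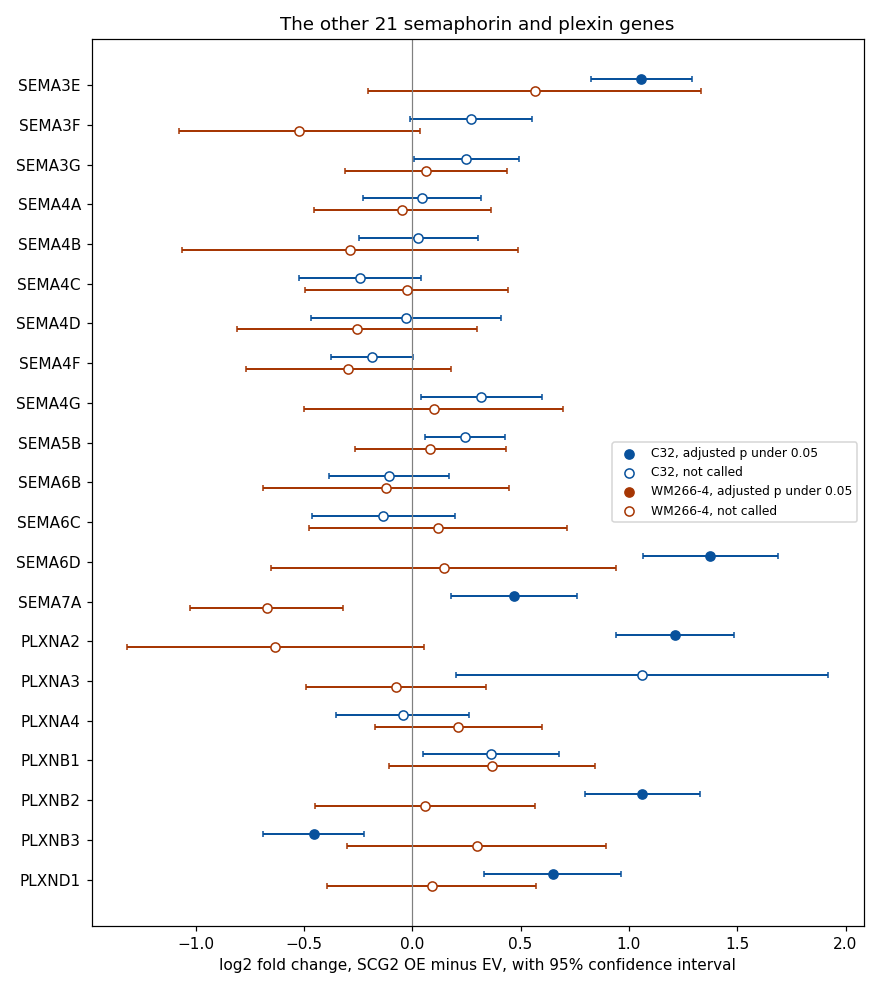
Log2 fold change of SCG2 OE against EV (horizontal axis) with 95% confidence intervals for the 21 semaphorin and plexin genes outside the 10, in C32 (blue) and WM266-4 (brown). Filled points passed an adjusted p of 0.05. In C32 SEMA6D (1.38) and PLXNA2 (1.21) lie farthest to the right among the filled points, and no WM266-4 point is filled.

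Of 9 co-receptors that act with plexins or neuropilins, 3 were higher and 3 lower in C32, beside 11.5% and 11% of all genes. MET, the hepatocyte growth factor receptor, which associates with B-type plexins, was higher by 1.69 (adjusted p = 0.00345), and ITGB1, the integrin chain that binds SEMA7A, by 0.49 (adjusted p = 0.0137). L1CAM, an adhesion molecule that joins NRP1 in the receptor of SEMA3A, fell by 0.89 (adjusted p = 0.0032). CD72, a receptor of SEMA4D on B cells, was higher by 0.46 (adjusted p = 0.0243), and was lost without EV replicate 2 (0.0636), EV replicate 3 (0.0538), SCG2 OE replicate 1 (0.0595) or SCG2 OE replicate 3 (0.0742). In WM266-4 0 of 9 were called by limma, beside 0.155% of all genes, and 1 had an unadjusted p below 0.05, beside 4.63%. Without WM266-4 SCG2 OE replicate 3, however, KDR, the main VEGF receptor, was called higher (1.89, adjusted p = 0.0269, against 1.55 and 0.177 with all arrays). KDR lay between 3.58 and 4.30 in WM266-4 EV, below the olfactory receptor percentiles, so neither value is an exact size.

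The VEGF ligands of neuropilins moved in both directions in C32. VEGFA fell by 0.43 (adjusted p = 0.0137), and the call was lost without EV replicate 1 (0.0549). VEGFC was higher by 0.65 (adjusted p = 0.0493), against EV values below the olfactory receptor percentiles, and was lost without EV replicate 1 (0.105), EV replicate 2 (0.12), EV replicate 3 (0.104), SCG2 OE replicate 2 (0.149) or SCG2 OE replicate 3 (0.14). The other 3 of the 5 ligands were not called, where 22.4% of all genes were called in either direction.

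Downstream of plexins, 6 of 25 intracellular effectors were higher and 1 lower in C32, beside 11.5% of all genes called higher and 11% called lower. MICAL3, of the family of actin-oxidising enzymes that plexins engage, was higher by 1.25 (adjusted p = 8.39e-05) and GSK3B, a kinase of collapsin response mediator proteins, by 0.85 (adjusted p = 0.000554). FARP1, which binds A-type plexins, was higher by 0.53 (adjusted p = 0.0065) and ARHGEF12, which binds B-type plexins, by 0.55 (adjusted p = 0.0086). In WM266-4 0 of 25 were called by limma, beside 0.155% of all genes, and 1 had an unadjusted p below 0.05, beside 4.63%. With the replicate block, the difference between the lines was called for MICAL3 (-0.85, adjusted p = 0.0229, against 0.342 without the block), MET (-1.70, adjusted p = 0.0195, against 0.0566) and PLXNB2 (-1.0, adjusted p = 0.0237, against 0.0627). In this fit the block paired the C32 arrays by number too, although the numbers were read as pairs in WM266-4 only.

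Among 6 proteases that process semaphorins, FURIN, which cleaves class 3 semaphorins, was higher in C32 by 0.47 (adjusted p = 0.0271), lost without EV replicate 1 (0.0841), SCG2 OE replicate 2 (0.0835) or SCG2 OE replicate 3 (0.0838). PCSK5, a related convertase, fell by 0.49 in C32 (adjusted p = 0.0251), lost without EV replicate 1 (0.0653), EV replicate 3 (0.0851), SCG2 OE replicate 1 (0.0635) or SCG2 OE replicate 3 (0.0715). WM266-4 gave PCSK5 a value of -1.53 (adjusted p = 0.0929), and it was called with the replicate block (0.015) and without SCG2 OE replicate 3 (0.0135). Its WM266-4 SCG2 OE values, from 4.61 to 5.68, were below the olfactory receptor percentiles of their arrays, so -1.53 is not an exact size.

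SEMA3C, SEMA3E, SEMA3A and SEMA3D lie on chromosome 7, with 3 other protein-coding genes between the first and the last of them in the order SEMA3C, HGF, CACNA2D1, PCLO, SEMA3E, SEMA3A and SEMA3D. This order was looked at after the values of SEMA3A and SEMA3D had been seen, and it was taken from RefSeq on GRCh38.p14. PCLO, which codes for a scaffold protein of the presynaptic active zone, was at 5.38, 5.09 and 4.89 in C32 EV and at 7.60, 8.37 and 8.62 in C32 SCG2 OE (3.08, adjusted p = 0.000157). The C32 EV values of PCLO were below the olfactory receptor percentiles of 5.59 to 5.74, so 3.08 is not an exact size. In WM266-4 PCLO was at 5.43, 6.62 and 5.83 in EV and at 8.40, 8.55 and 7.30 in SCG2 OE. The groups were apart there too, by 2.13 on average (adjusted p = 0.133), which passed with the replicate block (0.00677) and without SCG2 OE replicate 3 (0.0468).

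In C32 PCLO, SEMA3E and SEMA3D were called and SEMA3A on its brightest probeset was not. In WM266-4 SEMA3A was called and, with the block, PCLO and SEMA3D too, while SEMA3E was not (0.56, adjusted p = 0.914, and 0.45 with the block). HGF, a ligand of MET, was between 4.07 and 5.02 on all arrays, below the olfactory receptor percentiles, and its log2 fold changes of -0.20 and 0.41 were not called. CACNA2D1, a calcium channel subunit that lay between 2.78 and 3.24 on the WM266-4 arrays, had log2 fold changes of 0.23 and -0.05, and SEMA3C ones of 0.41 and -0.01. Neighbouring genes are not replicates of each other, and whether their position had a part in these values was not tested.

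**Figure D5:**
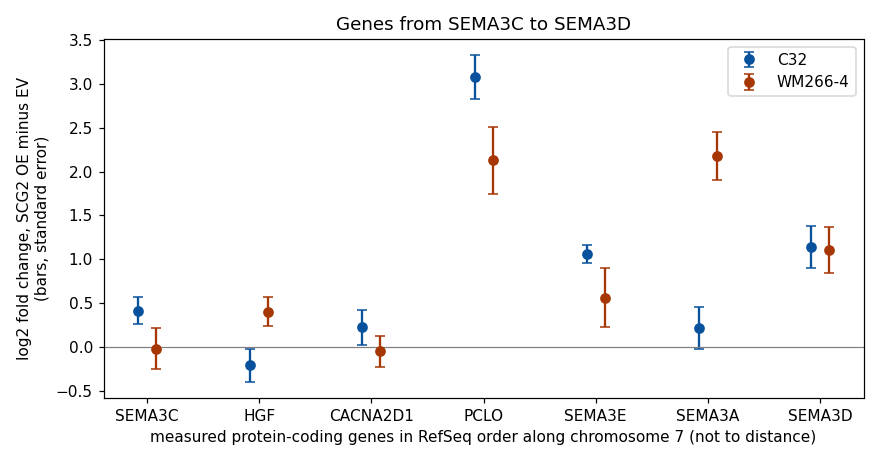
Log2 fold change of SCG2 OE against EV (vertical axis, with the standard error as bars) for the measured protein-coding genes from SEMA3C to SEMA3D in their order along chromosome 7 (horizontal axis, not to distance), in C32 (blue) and WM266-4 (brown). PCLO is highest in C32 (3.08, against EV values below the olfactory receptor percentiles), and SEMA3A (2.18) and PCLO (2.13) are highest in WM266-4.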

How the data were processed

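Total RNA of C32 and WM266-4 melanoma cells was hybridised to Affymetrix Clariom S human arrays. RMA-normalized log2 values of 21448 probesets on 12 arrays were deposited by the authors. Their limma tables of each line (log2 fold change, p-value and adjusted p-value per probeset) served here only for gene symbols. No source used here gives the genome build behind the probe annotation.

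Probesets were named through a RefSeq accession (18790), the symbol (1504) or an older symbol (198), and 956 without a single gene name were left out (AceView transcripts and circular RNAs among them). The brightest probeset stood for each of the 613 genes with more than 1, which gave 19379 genes. limma 3.58.1 in R 4.3.3 was run on the 6 arrays of a line (lmFit and eBayes, no covariate), and the difference between the lines and that between EV cells were contrasts of 4 group means over all 12 arrays. p-values were adjusted by Benjamini-Hochberg over all 19379 genes, with a threshold of 0.05. The code of the fits was tried on simulated data with independent noise on each array. Those data held no pairs of arrays, so they say nothing of how the fits handle the pairs in WM266-4. The number of arrays, 3 per group, limits the precision.

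The 10 genes and all gene lists were chosen with earlier results of these data known. Named are the 10 genes, of each wider list those called in WM266-4 or in the difference between lines and up to 4 called in C32 with the smallest p, and genes said to be chosen after their values were seen. KDR, PCSK5 in WM266-4, PCLO and its neighbours are of that last kind. Labels number the replicates without saying what a number marks. Arrays that share a number had deviations (value minus group mean) correlated across genes at 0.402, 0.259 and 0.351 in WM266-4, all over 0.1, and at 0.0389, -0.027 and -0.0611 in C32. The numbers were thus read as pairs in WM266-4 only, from the data and not from the labels. The main fits, that of WM266-4 and the difference between the lines included, did not use the pairs, and the replicate block is an alternative. In C32 and in the difference between the lines, that block used the C32 numbers as well. Alternatives were array centring, repeated quantile normalization, cyclic loess, a filter on genes with a mean log2 value below 5, the mean of probesets, an intensity trend, array weights, a replicate block, other sets of arrays, the methods' t-test and leaving out each array. The methods' t-test was a Student's t-test of each gene with the Benjamini-Hochberg adjustment, whereas the authors' tables of the arrays came from limma. Single probesets, the wider lists without each array and the chromosome 7 order were additions made once the values were known.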

Additional observations from a re-analysis of the deposited data

Results flagged for a closer look

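The response to SCG2 OE differed between the lines for 5 of the 10 genes by the interaction test of limma, beside 2.78% of all genes. Since the 10 genes were chosen with such values known, nothing is read from this count. The response in WM266-4 minus that in C32 was 1.96 for SEMA3A, -1.36 for SEMA3B, -2.16 for SEMA5A, -1.59 for SEMA6A and -3.18 for PLXNC1, on the log2 scale, with adjusted p of 0.017, 0.0103, 0.0122, 0.0022 and 0.0122. The SEMA3A call was lost without C32 SCG2 OE replicate 2 (adjusted p = 0.0517 from limma). Groups of 3 arrays are too small for the check for a single outlying array that needs at least 4.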

How the results depend on the processing

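Among the 10 genes, all 5 calls in C32 held without any single array and under every alternative but the methods' t-test, which kept 3 of them (SEMA3B, SEMA5A and SEMA6A) and added NRP2, and the 5 calls in the difference between the lines gave 4 to 5 without single arrays. In WM266-4 the 1 call became 2 with array weights and 2 with the replicate block, 0 by the methods' t-test, and 0 to 1 without single arrays. Between EV cells 7 calls became 4 by the methods' t-test and 5 to 8 without single arrays. Counting each of the 10 genes under every alternative, calls between EV cells were lost 15 times and gained 6 times. The replicate block changed no other member call. The cause of these changes was not tested.

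Signs that turned were all of log2 fold changes that were not called. In C32 PLXNA1 was -0.038 with centring and between -0.052 and 0.167 without single arrays. In WM266-4, quantile normalization gave 0.006 for SEMA3B, 0.07 for SEMA3C, 0.076 for SEMA5A and 0.076 for NRP2, cyclic loess 0.053 for SEMA3C, 0.056 for SEMA5A and 0.067 for NRP2, and array weights 0.183 for SEMA3C, 0.308 for SEMA5A and -0.025 for NRP1. Without single WM266-4 arrays the ranges were -0.262 to 0.096 for SEMA3B, -0.183 to 0.223 for SEMA3C, -0.343 to 0.179 for SEMA5A, -0.286 to 0.246 for NRP1 and -0.173 to 0.077 for NRP2. In the difference between the lines SEMA3D was 0.048 with centring, 0.119 with quantile normalization and 0.228 with array weights, PLXNA1 was -0.008 with array weights, and without single arrays SEMA3D ranged from -0.245 to 0.266, NRP1 from -0.091 to 0.441 and PLXNA1 from -0.041 to 0.283. Between EV cells SEMA3A was -0.044 as the mean of its probesets.

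Over all genes, 4346 were called in C32, against 1503 in a fit of all 12 arrays, 2568 by the methods' t-test and 2890 to 4031 without single arrays. In WM266-4 30 were called, against 151 with the replicate block, 137 with array weights, 170 in a fit of all 12 arrays, 0 by the methods' t-test and 10 to 37 without single arrays. The difference between the lines gave 539, against 1102 with array weights, 856 with the replicate block and 303 to 788 without single arrays.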

Other observations

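Within C32 SCG2 OE, the array with the highest PLXNC1 (9.17, replicate 3) was also the highest of its group for SEMA5A (10.48), for SEMA6A (9.72), for PCLO (8.62), for the melanosome gene PMEL (12.46 against 10.66 and 11.65) and for the E-cadherin gene CDH1 (8.21 against 5.48 and 7.05), and the array with the lowest PLXNC1 (7.56, replicate 1) was the lowest for all 5. SEMA3A, NRP1 and PLXNA1 were also lowest on replicate 1 and highest on replicate 3, while NRP2 was highest on replicate 2. SEMA3B, SEMA3C and SEMA3D had their lowest C32 SCG2 OE values (9.39, 8.64 and 6.67) on replicate 3. The other markers were mixed. MITF, MLANA, TYR and TYRP1 were highest on replicate 3, and SOX10, S100B and DCT (12.08, 11.68 and 11.64) were lowest there. KRT14 was lowest on replicate 3, KRT19 was highest there, and EPCAM was neither. SCG2 itself was at 12.47, 12.61 and 12.69 on these 3 arrays. These genes were singled out after their values were seen, over 3 arrays and with no test.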
